A study of Mus musculus with 6 samples.

Results

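Cardiac calcium handling and channel genes were taken as the 9 rows of the gene count table whose Ensembl identifiers map to Ryr2, Casq2, Atp2a2, Pln, Cacna1c, Slc8a1, Hcn4, Gja1 and Gja5, out of 49315 genes listed. All 9 passed the filter on low counts, which kept 16688 genes. The genes were chosen by name. In 1 of the 6 libraries, late replicate 2, 8 members were at their highest level, and Gja1 was highest in the fibroblasts.

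In a heart muscle cell, depolarization opens the L-type calcium channel, and the calcium that enters makes ryanodine receptors release more calcium from the sarcoplasmic reticulum, the internal store. Contraction ends when the SERCA pump returns calcium to the store and the sodium-calcium exchanger carries the rest out of the cell. HCN channels pass the pacemaker current, and connexins form the gap junctions through which the impulse spreads from cell to cell. Several of these proteins also serve cells outside the heart. SERCA2 refills the endoplasmic reticulum in most cell types, and connexin 43 couples fibroblasts of the skin.

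The 6 libraries came from wild type mouse tail-tip skin cells, and their poly(A) RNA was read as cDNA. There were 2 libraries of fibroblasts that had received negative control lentiviral vectors (day 0), 2 of early cells that had received CRISPR activation vectors (day 7) and 2 of late cells that had received CRISPR activation vectors and been isolated as colonies (day 22), named in the labels as CRISPR-induced cardiac progenitors. The treatment protocol names SAM vectors, in which an inactive Cas9 recruits activators to chosen promoters, for all 6 samples, whereas the treatment label of the fibroblasts names the negative vectors. The sources used here do not give the targeted genes or the age of the mice. Early replicate 2 is described in the labels as partially reprogrammed and early replicate 1 as early. Control fibroblasts were of day 0, so culture time differed along with the vectors. The fibroblast columns of the table carry their sample titles, and the early and late columns were assigned from the abbreviations in their names, so a wrong reading would exchange early and late. The labels do not say whether replicates were separate cultures or separate mice. The p-values therefore measure only the spread between these libraries, which may be technical.

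Total counts ranged from 20172874 to 40122999 per library, and levels are given as CPM, counts scaled to a common library size after TMM normalization. A count of 3, taken as the floor, stood for 0.0842 to 0.142 CPM, and floors and counting intervals cover counting error only. Late replicate 2 stood apart from the other 5 libraries: transcripts of the mitochondrial genome were 10.3% of its counts against 1.48% to 2.16%, and its correlation with late replicate 1 across genes was 0.883 (log2 CPM) while late replicate 1 and early replicate 1 reached 0.945. Fibroblast markers were present in every library, with sums over 8 genes of 5476 and 7169 CPM in the fibroblasts, 2875 and 12237 in early cells and 2629 and 3179 in late cells, although Lum had no count in early replicate 1. All 15 sarcomere markers were more than 10 times higher in late replicate 2 than in any other library, with a summed level of 57574 CPM against 91.7 in late replicate 1 and 24.4 to 159 in fibroblasts and early cells. The defining skeletal muscle factors Myod1 and Myog had no count in any library, and Myh4 had none in late replicate 2. Of the 12 skeletal muscle markers, 5 were nevertheless highest in late replicate 2, and 2 of these by more than 10 times.

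Promoter sequences are shown because in late replicate 2 Gja1 was below the fibroblasts and the other members were above them. The RefSeq promoter table on GRCm38.p6 held 8 of the 9 members with 10 starts, and the 250 bases upstream of each start were searched on both strands. The motifs were AGATAA (a form of the GATA factor motif), TGANTCA (AP-1), AGGTGT (T-box), CATTCC (MCAT), MEF2 and CArG. Other forms of the GATA factor motif were not searched. The 4 genes with a match other than T-box are printed 5′ to 3′, with the matched letters in capitals. They are Casq2 at chr3:102086165-102086414 on the plus strand, Pln at chr10:53337436-53337685 on the plus strand, Slc8a1 at chr17:81738388-81738637 on the minus strand and Gja1 at chr10:56377050-56377299 on the plus strand.
Casq2: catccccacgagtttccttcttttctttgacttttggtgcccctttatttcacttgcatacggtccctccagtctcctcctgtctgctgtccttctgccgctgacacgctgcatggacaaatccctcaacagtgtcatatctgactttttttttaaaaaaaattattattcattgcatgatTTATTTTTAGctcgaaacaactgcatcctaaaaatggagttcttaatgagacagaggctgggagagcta
Pln: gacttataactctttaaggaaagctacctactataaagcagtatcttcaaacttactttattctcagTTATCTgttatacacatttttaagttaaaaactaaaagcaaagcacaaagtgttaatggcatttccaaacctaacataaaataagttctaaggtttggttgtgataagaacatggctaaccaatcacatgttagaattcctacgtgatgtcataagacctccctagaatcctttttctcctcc
Slc8a1: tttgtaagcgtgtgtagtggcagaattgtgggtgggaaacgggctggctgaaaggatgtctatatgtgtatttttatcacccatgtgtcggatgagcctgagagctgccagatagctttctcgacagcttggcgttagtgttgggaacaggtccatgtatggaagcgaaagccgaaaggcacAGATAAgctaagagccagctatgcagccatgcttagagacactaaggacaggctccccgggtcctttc
Gja1: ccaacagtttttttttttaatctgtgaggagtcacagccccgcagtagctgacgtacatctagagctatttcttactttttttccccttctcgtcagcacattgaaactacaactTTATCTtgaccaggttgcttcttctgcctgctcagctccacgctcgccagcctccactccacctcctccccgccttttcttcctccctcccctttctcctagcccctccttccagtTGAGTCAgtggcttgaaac
Casq2 held a MEF2 match from -69 to -60, counted back from -1 at the base before the start. AGATAA, or its reverse complement, lay at -183 to -178 in Pln, at -68 to -63 in Slc8a1 and at -135 to -130 in Gja1, and Gja1 also had an AP-1 match at -19 to -13. The only other match was AGGTGT at Hcn4, on the reverse strand at -233 to -228, and no member had CArG or CATTCC. Of 32851 promoters of the same length, 2.92% held the MEF2 motif, 9.99% AGATAA, 6.75% TGANTCA, 11.8% AGGTGT, 12.6% CATTCC and 1.47% CArG. A match says only that the letters are there. AGATAA, at 3 of the 10 member promoters, was present both at Pln and Slc8a1, highest in late replicate 2, and at Gja1, highest in fibroblasts.

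Among the proteins of calcium release, Ryr2 encodes the ryanodine receptor of heart muscle (ENSMUSG00000021313, chromosome 13, 11553102 to 12106945, minus strand, GRCm38). It was at 0.571 and 3.65 CPM in the fibroblast libraries, 0.802 and 0.521 in early cells and 5.84 and 1212 in late cells. Both late libraries lay above both fibroblast libraries, but late replicate 1, with 140 counts, was close to fibroblast replicate 2 and late replicate 2 was 208 times higher than late replicate 1 (95% counting interval 176 to 247). The fitted log2 fold change of late cells over fibroblasts was 8.16 ± 2.63 (SE, edgeR adjusted p = 0.111). Casq2, the calsequestrin that binds calcium inside the store (ENSMUSG00000027861, chromosome 3, 102086415 to 102146514, plus strand), was at 0.571 and 2.35 CPM in the fibroblasts, 0.223 and 0.237 in early cells and 1.58 and 788 in late cells. Late replicate 1 fell between the fibroblast libraries, so the groups overlapped. The fitted late change was 8.06 ± 2.76 (edgeR adjusted p = 0.122).

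Of the genes of calcium reuptake, Atp2a2, which encodes SERCA2 (ENSMUSG00000029467, chromosome 5, 122453513 to 122502225, minus strand), was at 472 and 529.98 CPM in the fibroblasts, 512 and 719.6 in early cells and 363 and 9952 in late cells. It was thus plentiful in every library, lowest in late replicate 1 and 27.4 times higher in late replicate 2 than there. Early cells differed little from fibroblasts, with a log2 fold change of 0.30 ± 1.29 (edgeR adjusted p = 0.900), and the late change was 3.36 ± 1.41 (edgeR adjusted p = 0.168). Pln, whose small membrane protein phospholamban holds SERCA2 back until it is phosphorylated (ENSMUSG00000038583, chromosome 10, 53337667 to 53345987, plus strand), had 1.34 and 6.91 CPM in the fibroblasts, 0.757 and 1.37 in early cells and 3.13 and 2537 in late cells. Its contrast between the late libraries was the widest of the 9 genes, at 812 times (95% counting interval 647 to 1032), and late replicate 1 again lay between the fibroblast libraries. The fitted late change was 8.26 ± 2.97 (edgeR adjusted p = 0.132). Of the exon bases of Pln, 64.7% are shared with genes on the other strand, Gm47644 over 1644 bases and Cep85l over 141. Cep85l is among the genes counted and Gm47644 is not. Without a stated strand setting, reads of the overlaps cannot be assigned with certainty.

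At the surface membrane, Cacna1c encodes the pore of the L-type channel (ENSMUSG00000051331, chromosome 6, 118587240 to 119196418, minus strand). It was at 55.3 and 63.6 CPM in the fibroblasts, 27.7 and 57.6 in early cells and 26.6 and 199 in late cells. Early replicate 1 and late replicate 1 were nearly equal and were the lowest, and late replicate 2 was the highest. The late change was 0.92 ± 0.91 on the log2 scale (edgeR adjusted p = 0.505). Slc8a1, the sodium-calcium exchanger NCX1 (ENSMUSG00000054640, chromosome 17, 81373105 to 81738377, minus strand), was at 10.5 and 35.2 CPM in the fibroblasts, 4.59 and 1.70 in early cells and 8.54 and 97.6 in late cells. Both early libraries lay below both fibroblast libraries (log2 fold change -2.86 ± 1.30, edgeR adjusted p = 0.210), and late replicate 1 lay just below fibroblast replicate 1. The fibroblast libraries differed 3.35 times, and macrophage markers, summed over 6 genes, were at 253 and 1038 CPM in the fibroblasts, 115 and 50.9 in early and 71.1 and 170 in late cells. In early cells 5 of the 6 were below both fibroblast libraries, while Cd14 was above both and made up 111 CPM of the sum in early replicate 1. In late replicate 2, where Slc8a1 was highest, the sum was below both fibroblast libraries. There Cd14, at 73.0 CPM, was above both fibroblast libraries, and Csf1r, at 29.9 CPM, lay between them. Cd14 made up 67.1 CPM of the sum in late replicate 1. All 6 markers were higher in late replicate 2 than in late replicate 1, Lyz2 at 49.9 against 1.29 CPM and Csf1r at 29.9 against 1.33. Whether macrophage RNA contributed to Slc8a1 was not tested.

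Hcn4, the main pacemaker channel of the sinus node and an early marker of heart muscle precursors (ENSMUSG00000032338, chromosome 9, 58823412 to 58863175, plus strand), was the member that stood out in late replicate 1. It was at 0.369 and 0.294 CPM in the fibroblasts, with 11 and 10 counts, had 1 count and 0 counts in the early libraries, and was at 4.33 and 17.4 CPM in late cells, with 104 and 620 counts. Late replicate 1 was 13.1 times the fibroblast mean and late replicate 2 was 52.5 times, and none of the groups overlapped. The fibroblast to early ratio of pooled counts scaled by library size was 14.3, with an exact 95% counting interval of 2.31 to 593. The late change over fibroblasts was 5.02 ± 1.03 on the log2 scale, and its edgeR adjusted p of 0.0656 was the smallest of the 9 genes in that comparison without passing. Within late cells Hcn4 had the narrowest gap of the members, 4.02 times (95% counting interval 3.26 to 4.99).

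Gja1, which encodes connexin 43 (ENSMUSG00000050953, chromosome 10, 56377330 to 56402513, plus strand), was the 1 member that was not highest in late replicate 2. It was at 1395 and 1348 CPM in the fibroblasts, 77.1 and 124 in early cells and 49.9 and 332 in late cells. All 4 libraries with CRISPR activation lay below both fibroblast libraries, and the fibroblast replicates were nearly equal. The fibroblast mean was 13.6 times the early mean, 27.5 times late replicate 1 and 4.14 times late replicate 2. The log2 fold change was -3.77 ± 0.94 in early cells (edgeR adjusted p = 0.0809) and -2.85 ± 0.90 in late cells (edgeR adjusted p = 0.109). The early change passed the test when late replicate 1 or late replicate 2 was left out of the shared estimate of spread (edgeR adjusted p = 0.0367 and 0.0328), in fits that called 3.54% and 4.8% of all genes. Fibroblast markers differed as well: their sum was below both fibroblast libraries in early replicate 1 and both late libraries, and above both in early replicate 2, where the collagen genes and Dcn were high. Pdgfra, at 530 CPM, and Lum, at 102 CPM, were also above both fibroblast libraries in early replicate 2. In late replicate 2, Dcn, at 232 CPM, and Lum, at 53.4 CPM, were above both fibroblast libraries although the sum was below. S100a4 and Thy1 were below both fibroblast libraries in all 4 libraries with CRISPR activation. S100a4 was at 128 and 156 CPM in early cells against 1452 and 939 in fibroblasts. The part of these differences in the level of Gja1 was not tested. In these bulk libraries, fewer cells carrying a transcript and less of it per cell cannot be told apart.

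Gja5, which encodes connexin 40 of the atria, the conduction system and arterial endothelium (ENSMUSG00000057123, chromosome 3, 96904693 to 97077416, plus strand), was close to the floor outside late replicate 2. It was at 0.101 and 0.529 CPM in the fibroblasts, from 3 and 18 counts, had no count in either early library, and was at 0.167 and 16.6 CPM in late cells, from 4 and 590 counts. The pooled fibroblast libraries were at least 4.78-fold higher than early cells and late replicate 2 at least 241-fold higher, both computed with 3 counts over the early group. The first bound rests on fibroblast replicate 2, which alone gives 7.69, while fibroblast replicate 1, at the floor, alone gives 1.46. Late replicate 1 lay between the fibroblast libraries, and the late change was 4.70 ± 2.25 on the log2 scale (edgeR adjusted p = 0.225). Endothelial markers stood at 730 CPM in late replicate 2, summed over 8 genes, against 23.7 in late replicate 1 and 1.74 to 11.8 in the other libraries. Their part in the level of Gja5 was not tested.

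**Figure D1:**
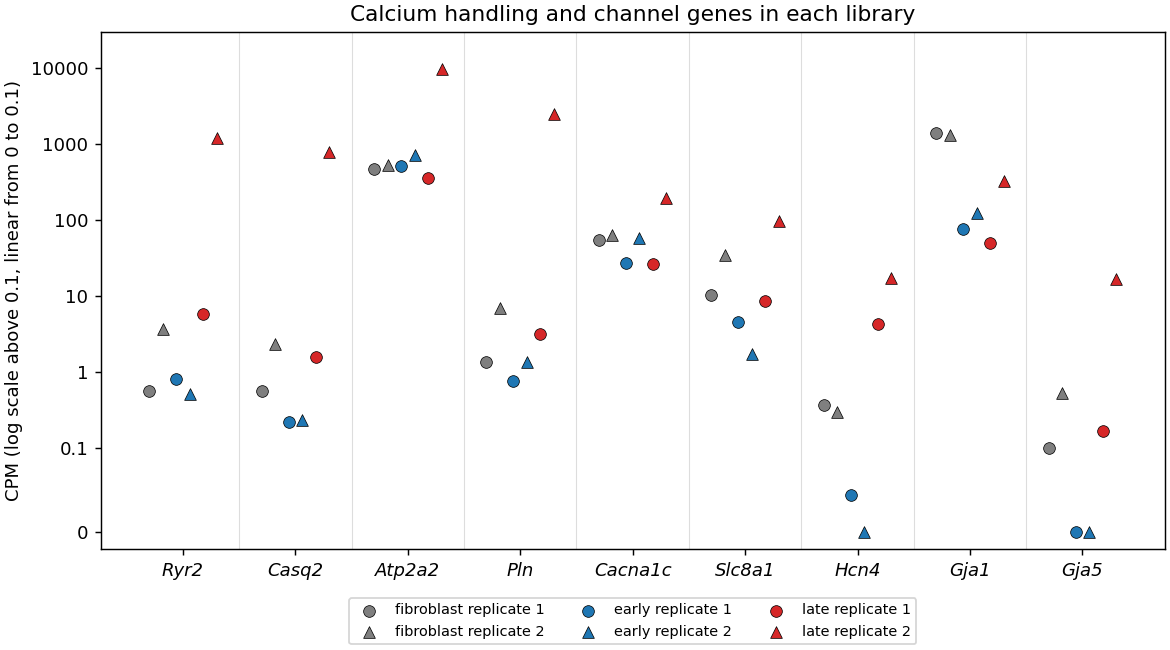
CPM of each of the 9 genes (horizontal axis) in each of the 6 libraries on a vertical axis that is logarithmic above 0.1 and linear below; color gives the group and shape the replicate. Late replicate 2 is the highest point for 8 genes, and for Gja1 the 2 fibroblast libraries, at 1395 and 1348 CPM, are the highest.

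The comparison of early cells with fibroblasts asks what the first week of CRISPR activation did to these genes. Casq2, Slc8a1, Hcn4, Gja1 and Gja5 had both early libraries below both fibroblast libraries, and no member had both above. Among all genes tested, 34.4% were lower and 32.3% higher by that measure. The fitted change was negative for 8 of 9 members and their median log2 fold change was -2.66, beside 0.00 over all genes. None of the 9 was called by edgeR at an adjusted p under 0.05, where 1.53% of all genes were. At an unadjusted p under 0.05 there were 2 members, Hcn4 and Gja1, with 29.8% of all genes. DESeq2 called 1 member, Gja1, with 21.5% of the genes to which it gave an adjusted p. Ryr2 lost its direction without fibroblast replicate 2 (log2 fold change 0.21 in place of -1.67).

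The comparison of late colonies with fibroblasts asks whether induced progenitors carried the transcripts of heart calcium cycling, and the libraries gave different pictures. In late replicate 2, 8 of 9 members exceeded the other 5 libraries, a property of 21.2% of all genes tested, and 5 of them, Ryr2, Pln, Casq2, Atp2a2 and Gja5, by more than 10 times, a property of 1.75%. Both shares leave out genes with more than a few counts in late replicate 2 alone, which the filter removed. In late replicate 1, Ryr2 and Hcn4 were above both fibroblast libraries (44% of all genes) and Atp2a2, Cacna1c, Slc8a1 and Gja1 were below both (44.8%). Across both late libraries, Ryr2 and Hcn4 did not overlap with fibroblasts on the higher side (35.7% of all genes) and Gja1 on the lower side (32.9%). Adjusted over all genes, edgeR called 0 of 9 members and 1.42% of all genes, with 5 members and 32.5% of all genes at an unadjusted p under 0.05. DESeq2 called 6 members, 5 higher and Gja1 lower, with 24.9% of its genes. The median log2 fold change of the 9 was 4.70, beside 0.11 over all genes.

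These values depended on which late library was kept. With late replicate 2 alone as the late group, edgeR called Ryr2, Pln, Atp2a2, Casq2 and Hcn4 (adjusted p from 0.0289 to 0.0374) and 5.67% of all genes. With late replicate 1 alone it called no member and 0.0467% of all genes. The log2 fold changes were then -0.41 for Pln, -0.47 for Atp2a2, -1.16 for Cacna1c, -1.43 for Slc8a1 and -0.92 for Gja5, all with the opposite sign to the fit on both libraries. Hcn4 at 3.69, Ryr2 at 1.46, Casq2 at 0.10 and Gja1 at -4.79 kept theirs. In either of these fits the single late library is assumed to vary like the other groups.

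**Figure D2:**
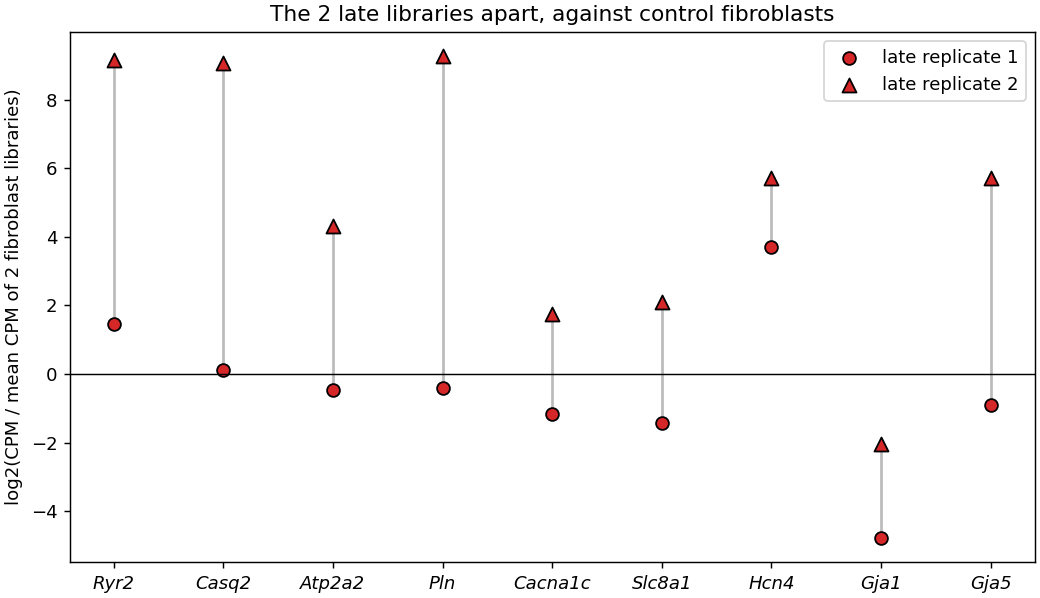
The log2 ratio of each late library's CPM to the mean CPM of the 2 fibroblast libraries (vertical axis) for each of the 9 genes; circles are late replicate 1, triangles are late replicate 2 and the line at 0 is the fibroblast mean. For Pln the points lie at -0.40 and 9.26, for Hcn4 at 3.71 and 5.71, and for Gja1 both lie below 0, at -4.78 and -2.05.

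Late colonies against early cells asks what changed between day 7 and day 22. The early libraries were low for most members, so Ryr2, Pln, Casq2, Slc8a1, Hcn4 and Gja5 had both late libraries above both early ones, a separation shown by 16.1% of all genes. No member had both late libraries below. Hcn4 had the smallest adjusted p, 0.289, with a log2 fold change of 8.64 ± 1.33 and a late to early ratio of 529 in pooled counts scaled by library size (exact 95% counting interval 94.7 to 20939). Slc8a1 had a fitted change of 4.07 ± 1.36 (edgeR adjusted p = 0.435). No gene of the whole table passed this test in edgeR (0% called), while at an unadjusted p under 0.05 there were 6 members and 10.2% of all genes. DESeq2 called the same number, 6 members, and 6.21% of its genes. With late replicate 2 alone as the late group edgeR called 5 members and 3.23% of all genes, and without that library it called no member and no other gene. This comparison and the previous 2 share libraries and are not independent of each other.

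Outside late replicate 2, Ryr2, Pln and Casq2 stood at percentages of their level there that were close to those of the sarcomere markers. In fibroblast replicate 2 they stood at 0.301%, 0.272% and 0.299% of their level in late replicate 2, and the median over the 15 sarcomere markers was 0.269%. In fibroblast replicate 1 they stood at 0.0471%, 0.0529% and 0.0725%, beside a sarcomere median of 0.0389%. These 3 genes were 4.12 to 6.39 times higher in fibroblast replicate 2 than in fibroblast replicate 1, and 5 of 9 members were over 2 times higher there, against 7.22% of all genes. Erythroid markers, which belong to another cell type, gave 0.280% in fibroblast replicate 2, 0.0451% in fibroblast replicate 1, 0.0599% and 0.0636% in early cells and 0.128% in late replicate 1. Adipocyte markers, with few counts in these libraries, gave 0.359%, 0.136%, 0.181%, 0.128% and 0.508% in the same order. Endothelial markers gave 1.62%, 0.934%, 0.238%, 0.324% and 3.24%. In late replicate 1 Pln was at 0.123% and Casq2 at 0.201%, near the sarcomere median of 0.174%, whereas Ryr2 was at 0.481%, within the sarcomere range of 0.0956% to 1.17%. Whether reads of late replicate 2 were counted in the other libraries was not tested. Hcn4 in late replicate 1 was at 24.9% of late replicate 2, and Slc8a1, Cacna1c and Gja1 were at 8.76%, 13.4% and 15.1%, all above that range.

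**Figure D3:**
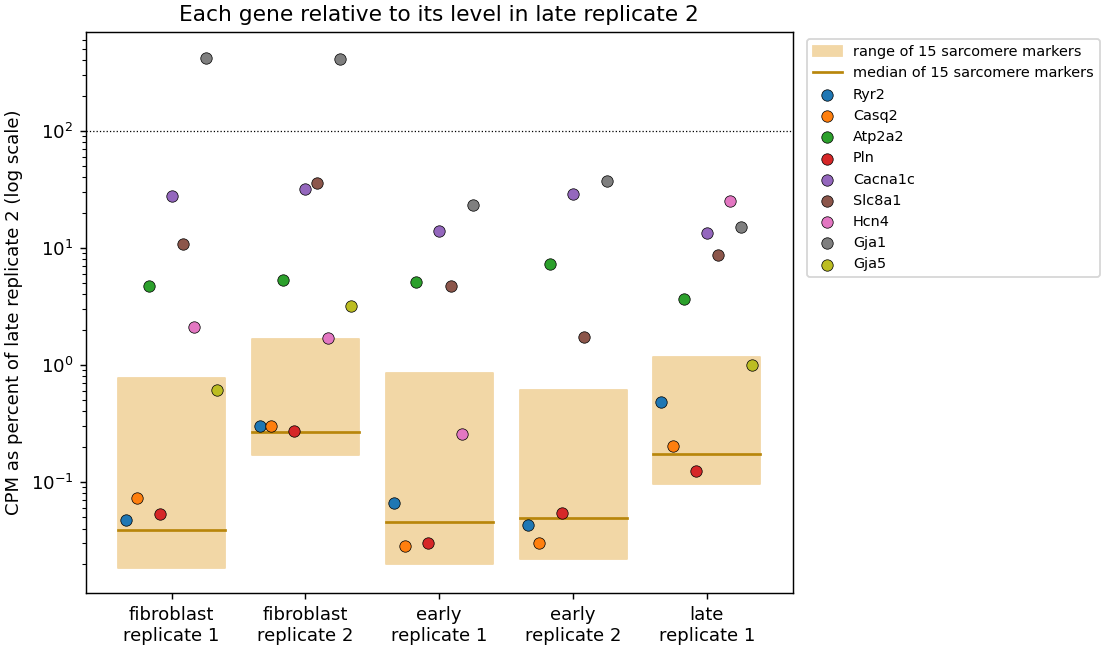
CPM of each gene as a percent of its own CPM in late replicate 2 (logarithmic vertical axis, dotted line at 100) in the other 5 libraries; the shaded band is the range and the line the median of 15 sarcomere markers, and a gene without counts (Gja5 in both early libraries, Hcn4 in early replicate 2) has no point. Ryr2, Casq2 and Pln lie inside the band in each library, and Hcn4 in late replicate 1 lies above it at 24.9%.

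Late replicate 2 also held more transcripts of several cell types other than heart muscle. All 5 erythroid markers were more than 10 times above every other library, with a sum of 1042 CPM against 0.470 to 2.91. The globin gene Hbb-bs alone reached 572 CPM. Adipocyte markers summed to 73.8 CPM against 0.0946 to 0.375, and 7 of 8 endothelial markers were more than 10 times higher than elsewhere. Smooth muscle markers summed to 2117 CPM there, inside the range of the fibroblast libraries, 815 and 3320. Skeletal muscle markers summed to 1507 CPM against 8.63 to 30.3, of which 1415 CPM was Ckm, a creatine kinase that heart muscle shares. Keratinocyte markers stayed between 3.74 and 10.7 CPM in all 6 libraries, and neural and glial markers at 9.17 and 23.9 CPM in the fibroblasts, 117 and 120 in early and 76.8 and 47.9 in late cells. The part of these cell types in the members' levels was not tested. The count table does not show how that library came by these transcripts, so its values are those of the library labelled late replicate 2, and its origin was not tested.

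Levels per length show which gene led each library, in CPM per kb of exon. Gja1 led the fibroblasts at 136 and 131, followed by Atp2a2 at 77.6 and 87.2. Atp2a2 led the early cells at 84.3 and 118 and late replicate 1 at 59.6, with Gja1 next at 7.52, 12.1 and 4.87. In late replicate 2 the order was Atp2a2 at 1637, Pln at 920, Casq2 at 288, Ryr2 at 42.1 and Gja1 at 32.3. Cacna1c came next in the other 5 libraries, at 1.26 to 2.9997, and was at 9.38 in late replicate 2. Below Cacna1c, the neighbors Pln and Slc8a1 changed places between the fibroblast replicates, at 0.487 and 0.559 and at 2.51 and 1.87. Pln per kb was far under Atp2a2 in 5 libraries and of the same order in late replicate 2.

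Within their families, the members were not always the leading ones. Of the 3 sodium-calcium exchangers per kb, Slc8a3 led fibroblast replicate 1 at 56.1% and early replicate 2 at 51.9%. Slc8a2 led late replicate 1 at 45.6%, and Slc8a1 led the other libraries. On few counts, Casq1 led Casq2 in early cells at 58.4% and 71.6%, and Ryr3 led Ryr2 in fibroblast replicate 1 at 55.2%. Atp2a2 made up 98.3% to 99.8% of the 3 SERCA genes per kb in every library. Cacna1c was 80.1% and 79.5% of the 3 L-type pore genes in fibroblasts, where Cacna1d, a form with a more negative opening range, made up 19.9% and 20.5%, and was 98.9% and 99.6% in early cells and 94.1% and 93.2% in late ones. Cacna1d itself had 243 and 332 counts in fibroblasts against 4 and 3 in early cells. Hcn2 was the most abundant HCN channel per kb in each library, at 63.3% to 92.5% of the family, and Hcn4 reached 19.3% and 18.7% in the late libraries against at most 2.28% elsewhere. Ryr2 was 99.7% of ryanodine receptors per kb in late replicate 2, while the 3 genes together stayed under 1 CPM per kb in the other libraries. Sln, sarcolipin, which regulates SERCA mainly in atrial and skeletal muscle, had 106 CPM in late replicate 2 and no more than 0.167 in any other library. These shares rest on few counts in the low families and carry no test.

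The balance of connexins differed between libraries. Among the 4 connexins of heart and vessels, Gja1 made up 98.2% per kb in both fibroblast libraries, 49.0% and 48.9% in early cells, 34.7% in late replicate 1 and 67.5% in late replicate 2. Gjc1, connexin 45 of the early heart tube and the conduction system, was at 12.0 and 11.6 CPM in the fibroblasts, 38.4 and 32.8 in early cells and 41.1 and 42.6 in late cells. It rose in both comparisons with fibroblasts, by 1.59 ± 0.22 in early cells (edgeR adjusted p = 0.0456) and 1.83 ± 0.22 in late cells (edgeR adjusted p = 0.0460) on the log2 scale. Both late libraries were nearly equal, unlike those of any member. Gja4, connexin 37 of vessels, was at 10.3 CPM in early replicate 2 and at 0.267 in early replicate 1, and did not pass (edgeR adjusted p = 0.145). Leaving out 1 library of the groups compared ended the edgeR calls of Gjc1 in some cases, with the direction kept. Without fibroblast replicate 1 the adjusted p was 0.265 in early and 0.279 in late cells, and without fibroblast replicate 2 it was 0.308 and 0.309. Without early replicate 1 it was 0.118 in early cells, and without late replicate 2 it was 0.0764 in late cells. The early call held without early replicate 2 (edgeR adjusted p = 0.0450) and the late call without late replicate 1 (edgeR adjusted p = 0.0430).

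**Figure D4:**
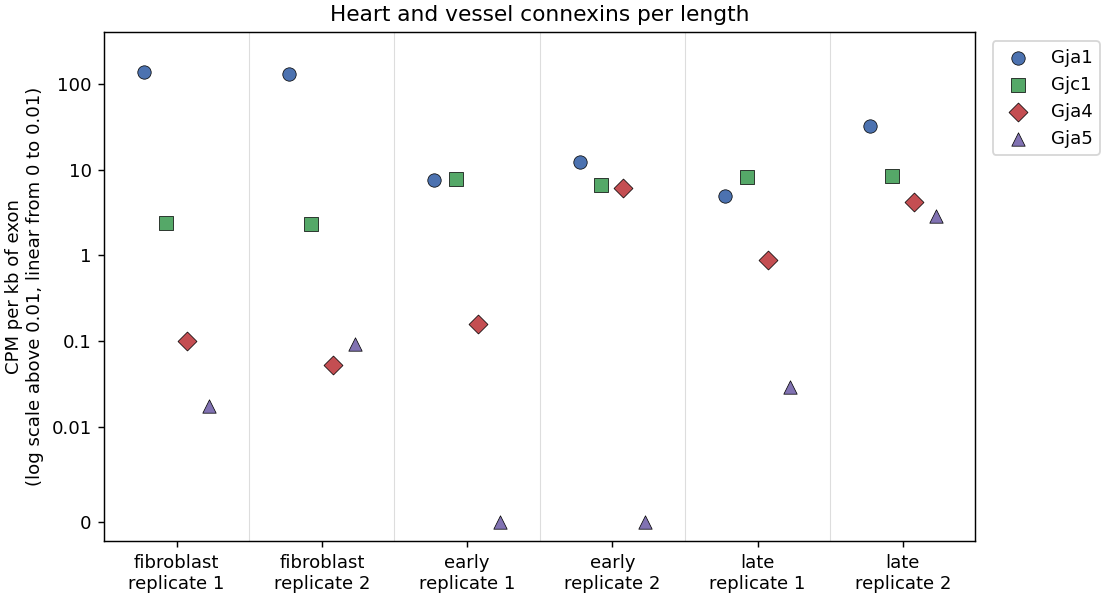
CPM per kb of exon of 4 connexin genes of heart and vessels in each library, on a vertical axis that is logarithmic above 0.01 and linear below. Gja1 lies at 136 and 131 in fibroblasts and at 4.87 in late replicate 1, where Gjc1, at 8.22, lies above it.

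Other genes of the pathway were read from 5 lists with 87 symbols, of which 86 were matched and 64 passed the filter. In early cells 2 of the 64 rose (0.695% of all genes) and 1 fell (0.833%), and in late cells 2 rose (0.641%) and 1 fell (0.779%). Gjc1, whose values are given with the connexins, was among those that rose in both comparisons. Late colonies against early cells gave no call among the 64.

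The 16 matched genes of release, storage and reuptake included 13 that were tested, of which 10 had a higher fitted value in late cells than in fibroblasts, with a median log2 fold change of 1.29 and no call. Hrc, a calcium-binding protein of the store, was at 1.21 and 638 CPM in the late libraries, Srl, sarcalumenin, at 4.88 and 873, and Trdn, which tethers calsequestrin to the ryanodine receptor, at 0.167 and 128. Jph2, which holds the store against the surface membrane, was at 6.31 and 13.0 CPM in the fibroblasts, 27.4 and 45.7 in early cells and 22.1 and 631 in late cells. Its values were higher than in fibroblasts in all 4 libraries with CRISPR activation, without passing the test (edgeR adjusted p = 0.399 in early and 0.107 in late cells). The list of surface calcium channels and extrusion had 7 of 14 tested genes higher in late cells, a median of 0.11 and no call. Its pump Atp2b1 was at 132 and 121 CPM in the fibroblasts, 289 and 257 in early cells and 323 and 196 in late cells (edgeR adjusted p = 0.0889 and 0.0933), and Rrad, a small GTPase that restrains L-type channels, was at 8.503 and 159 CPM in the late libraries. Slc8a2, the exchanger of neurons, was at 0.168 and 0.0882 CPM in the fibroblasts and 2.63 and 1.57 in late cells (edgeR adjusted p = 0.0594).

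Of the 15 tested pacemaker, sodium and potassium channel genes, 13 had a higher fitted value in late cells than in fibroblasts. The median log2 fold change of the 15 was 4.76, with 0 called as rising and 1 called as falling. Late replicate 1 was above both fibroblast libraries for 9 of the 15 (44% of all genes) and below both for 5 (44.8%). In late replicate 2, 7 of the 15 exceeded every other library more than 10 times (1.75% of all genes). Kcnj11, a pore of the ATP-sensitive potassium channel, was at 2.13 and 110 CPM in the late libraries against no count and 0.176 CPM in the fibroblasts. Kcnk3, a background potassium channel, was at 3.66 and 5.15 CPM in the fibroblasts, 0.223 and 0.189 in early cells and 9.17 and 275 in late cells, low in early and high in late cells as Hcn4 was (edgeR adjusted p = 0.162 and 0.104 against fibroblasts). Of the calcium signalling regulators, 6 of 15 were higher in late cells, with a median of -0.10 and no call. Calr, the calcium-binding chaperone of the endoplasmic reticulum, was at 1585 and 1946 CPM in the fibroblasts, 836 and 1025 in early cells and 765 and 750 in late cells (edgeR adjusted p = 0.1002 and 0.0694). The 7 tested connexins had a median late change of 1.84, with 6 higher.

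**Figure D5:**
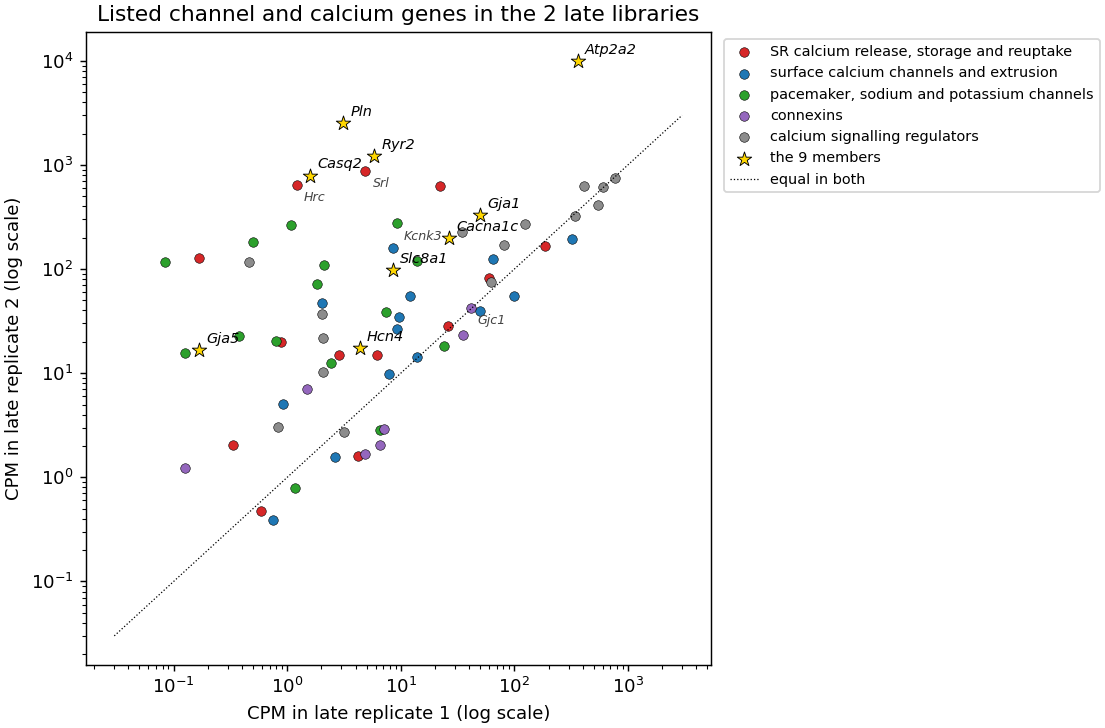
CPM in late replicate 1 (horizontal) and late replicate 2 (vertical), both logarithmic, for the 64 tested genes of 5 lists and the 9 members (stars); the dotted line marks equal levels. Pln, Ryr2 and Casq2 lie far above the line with Hrc and Srl, Hcn4 lies nearer to it, and Gjc1 lies on it at 41.1 and 42.6 CPM.

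Likeness over the 6 libraries was measured as the distance between centred log2 CPM profiles, and the 3 nearest genes outside the 9 were read for each member. Ryr2 was nearest to Des, the intermediate filament desmin (distance 0.88, r = 0.996), then Actc1 and Mybpc3. Pln was nearest to Myoz2, Ttn and Csrp3 (0.59, 0.59 and 0.62), and Casq2 to Ttn, Myo18b and Nrap (0.63, 0.63 and 0.67), most of them genes of the sarcomere or its Z-disc. Gja5 was nearest to Chchd10, Myh14 and Fgf16 (0.75, 0.79 and 0.93). Atp2a2 was nearest to Slc26a10, Pik3r6 and mt-Ta (0.70, 0.83 and 0.87), and Cacna1c to Nol3, Slc41a3 and Entpd5 (0.40, 0.50 and 0.53). Cd40 and Ly86, immune cell genes below the floor in both early libraries, were the nearest to Slc8a1 (1.02 and 1.12), followed by Eif4e3 (1.22). Hcn4 had no neighbor as close as those, with Nebl at 1.57 and Tmem88 at 1.60, and the 3 nearest to Gja1 included Tox and Arhgap36 (1.09 and 1.14). Among the members, Pln and Casq2 were nearest to each other (r = 0.995). These distances are over 6 libraries of which late replicate 2 contributes the widest deviation for most members, and they are a description of these libraries.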

How the data were processed

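Poly(A) RNA of 6 libraries of mouse tail-tip skin cells, 2 in each of 3 groups, was deposited by the authors as whole-number read counts for each Ensembl gene, without normalization. The submitters' processing notes name Trimmomatic 0.36, STAR 2.5.2b, featureCounts, Subread 1.5.2 and the GRCm38 build. The sources used here do not give the annotation release, the strand setting or the treatment of reads with several positions, so counts over overlapping genes and near-identical copies are uncertain.

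Symbols, positions and exon lengths came from GENCODE M21 on GRCm38 (49056 of 49315 identifiers had a symbol, and 1 listed symbol, Strit1, was not matched). Genes were filtered by filterByExpr (16688 kept), scaled by TMM and fitted with edgeR 4.0.16 in R 4.3.3 by a robust quasi-likelihood model on the 3 group means without a block, with 3 residual degrees of freedom and a common biological coefficient of variation of 48.6%. The 3 contrasts were adjusted over all genes by Benjamini-Hochberg and called under 0.05. A standard error is the size of the fold change divided by the square root of F. The filter asks for a minimum of counts in 2 libraries, so genes with more than a few counts in late replicate 2 alone, such as Sln, were not tested. The fit was tested on simulated counts with less spread between libraries than these data and the same spread in every group. That test does not cover members whose late libraries differ widely. DESeq2 1.42.0 and 10 further settings were alternatives. Counting intervals are exact at 95%.

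The members and lists were chosen with earlier results of these data known. Named genes are the 9 members, up to 4 called genes of each list, the 3 of each list with the highest CPM and the 3 with the largest late change, genes of the members' families and the 3 nearest genes of each member. Some named genes are not reported here. Of the others, examples are printed, chosen with their values seen. The single markers Ckm, Hbb-bs, Lum, Dcn, Pdgfra, S100a4, Thy1, Cd14, Csf1r, Lyz2, Myod1, Myog and Myh4 were chosen in the same way. Same-numbered libraries of 2 groups correlated in their deviations from the group means at 0.121, 0.238 and 0.0859, so the numbers were not taken as pairs.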

Additional observations from a re-analysis of the deposited data

Results flagged for a closer look

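Hcn4 differed from fibroblasts in opposite directions at day 7 and day 22: both early libraries lay below both fibroblast libraries and both late libraries lay above them. The fitted difference between late and early cells was 8.64 on the log2 scale, and the test of that difference did not pass in edgeR (adjusted p = 0.289), so it is given for its direction in every library and not for a call. The early values rest on 1 count in all.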

How the results depend on the processing

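No member was called in any of the 3 comparisons. In early cells against fibroblasts, DESeq2 called 1 member and leaving out a library gave 0 to 1. In late cells against fibroblasts, DESeq2 called 6, the fit without a low-count filter 1 (Hcn4) and leaving out a library 0 to 5. In late against early cells the numbers were 6, 1 and 0 to 5. Over all genes, the 255 calls in early cells became 514 with library totals, 2337 without a filter, 4027 in DESeq2 and 0 to 823 when a library was left out. The 237 calls in late cells became 2495 without a filter, 4661 in DESeq2 and 0 to 1058, and the 0 calls between late and early cells became 276, 1087 and 0 to 602. Library totals shifted the median of all genes by 0.169 in early and 0.159 in late cells on the log2 scale, and no member changed direction with it. The fit with a replicate block called 26 genes in early and 9 in late cells and no member, and the calls of Gjc1 were lost in it (adjusted p = 0.0748 and 0.0724).

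Among the members, directions turned only when a library was left out, and the other end of each range over left-out libraries follows its reversed value. Without fibroblast replicate 2, Ryr2 in early cells was at 0.21, with -2.46 at the other end. Without late replicate 2, the late log2 fold changes over fibroblasts were -0.41 for Pln (other end 9.86), -0.47 for Atp2a2 (4.22), -1.16 for Cacna1c (1.66), -1.43 for Slc8a1 (2.32) and -0.92 for Gja5 (6.29). Those over early cells were -0.77 for Atp2a2 (3.91), -0.68 for Cacna1c (2.12) and -1.01 for Gja1 (1.61). The cause was not tested. Depth limits Hcn4 and Gja5 in early cells, with 1 and 0 counts in all.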
